A study of Homo sapiens and Mus musculus with 56 samples.

Results

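Mitosis genes are 40 genes whose products drive chromosome segregation and cell division: CDK1 and its cyclins, the mitotic kinases, the chromosomal passenger complex, the spindle checkpoint, the anaphase-promoting complex, the kinetochore, spindle motors and the cytokinesis machinery. They were taken by symbol, in a list chosen with earlier results of these data known. All 40 were found among 19775 genes on the human arrays and 39 among 18193 genes on the mouse arrays, where no probe set carried the symbol Ccnb1 alone. The genes were followed on 56 Affymetrix arrays of 5 leukaemia cell models. RS4;11 and SEM grew from human B-cell precursor leukaemias that carry KMT2A-AFF1, and REH from one that has no rearranged KMT2A. MOLM-13 is of human myeloid origin and carries KMT2A-MLLT3. The fifth model is mouse leukaemic cells transformed by MLL-AF9 and kept in interleukin-3, interleukin-6 and stem cell factor. RS4;11, SEM and REH received EPZ004777 (3 µM), MI-2-2 (10 µM), both compounds, or DMSO for 6 days. For MOLM-13 and mouse cells each compound was used at 3 µM over 4 days, with the same 4 groups. EPZ004777 inhibits DOT1L, a histone H3 methyltransferase active on transcribed genes, and MI-2-2 blocks the binding of menin to KMT2A and its fusions. Each group held 3 arrays, except that RS4;11 had 2 with DMSO and SEM had 2 each with the combination, MI-2-2 and DMSO. The design text calls the replicates biological, and p-values here measure the spread between them. Each model is 1 line or 1 transformed population, so no result speaks for other leukaemias with the same fusion.

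Mitotic genes are transcribed late in the cell cycle. In resting and early cycling cells the DREAM complex holds them down through a short element of their promoters, the cell cycle genes homology region (CHR). In G2 the MuvB core of that complex joins B-MYB and FOXM1 and activates the same genes, while NF-Y binds CCAAT boxes nearby. Their messages therefore usually stand high in dividing populations and low in arrested or terminally differentiated ones. In a bulk sample, a smaller share of cells in mitosis and less message per cell cannot be told apart.

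The promoters below show the letters through which this family is recognised, for 7 members whose values recur below. Each runs 5′ to 3′ on the gene's own strand from 150 bases before to 30 after the RefSeq start on GRCh38.p14. Capitals mark TTTGAA or TTCGAA (CHR) and CCAAT, on either strand.
CDC20, chr1:43358831-43359010, plus strand: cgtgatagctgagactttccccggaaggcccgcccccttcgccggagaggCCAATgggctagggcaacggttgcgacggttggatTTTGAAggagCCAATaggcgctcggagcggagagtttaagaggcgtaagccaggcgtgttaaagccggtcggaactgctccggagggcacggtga
CDCA3, chr12:6851257-6851436, minus strand: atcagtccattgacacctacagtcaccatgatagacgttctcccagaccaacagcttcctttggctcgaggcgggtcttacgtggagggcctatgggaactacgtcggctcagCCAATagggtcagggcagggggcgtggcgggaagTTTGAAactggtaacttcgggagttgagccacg
MKI67, chr10:128126394-128126573, minus strand: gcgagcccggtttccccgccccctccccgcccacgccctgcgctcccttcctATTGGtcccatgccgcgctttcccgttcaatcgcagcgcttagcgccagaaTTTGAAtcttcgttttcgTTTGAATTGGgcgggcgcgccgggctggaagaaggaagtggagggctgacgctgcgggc
PLK1, chr16:23678739-23678918, plus strand: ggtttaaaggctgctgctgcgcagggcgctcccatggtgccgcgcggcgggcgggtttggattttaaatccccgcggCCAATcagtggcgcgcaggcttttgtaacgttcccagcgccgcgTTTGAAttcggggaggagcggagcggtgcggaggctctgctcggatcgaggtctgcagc
SPC25, chr2:168890401-168890580, minus strand: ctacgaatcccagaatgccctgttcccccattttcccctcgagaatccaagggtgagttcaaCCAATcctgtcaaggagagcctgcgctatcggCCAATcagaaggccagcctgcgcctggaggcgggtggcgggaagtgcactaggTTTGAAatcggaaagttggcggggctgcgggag
KIF20A, chr5:138178962-138179141, plus strand: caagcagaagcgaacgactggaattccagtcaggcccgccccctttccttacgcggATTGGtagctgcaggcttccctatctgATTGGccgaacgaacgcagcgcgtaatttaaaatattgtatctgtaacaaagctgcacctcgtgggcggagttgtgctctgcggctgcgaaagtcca
CCNB1, chr5:69167000-69167179, plus strand: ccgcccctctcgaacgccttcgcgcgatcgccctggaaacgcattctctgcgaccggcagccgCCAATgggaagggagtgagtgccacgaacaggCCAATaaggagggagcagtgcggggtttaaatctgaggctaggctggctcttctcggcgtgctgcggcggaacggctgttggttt
CDC20, CDCA3, MKI67, PLK1 and SPC25 hold both motifs in this stretch. KIF20A and CCNB1 hold CCAAT letters without the CHR letters, which says only that those letters are not in this window. In MKI67 the CHR letters that end at base -24 share 1 base with CCAAT letters on the other strand, and in CDCA3 and SPC25 the CHR letters span the start itself.

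RefSeq windows from 250 bases before to 50 after the start were given for 33 of the 40 members. These motifs were searched on both strands. CHR letters occurred in 25 of these 33 windows (75.8%), against 13.5% of 15843 protein-coding promoters. CCAAT letters occurred in 27 of 33 (81.8%), against 36.4%. Both were present in 63.6% of members and in 5.57% of protein-coding promoters. Other mitosis genes had CHR letters in 66.7% of 51 windows, and DNA replication genes in 6.25% of 32. These shares describe letters and not bound sites.

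**Figure D1:**
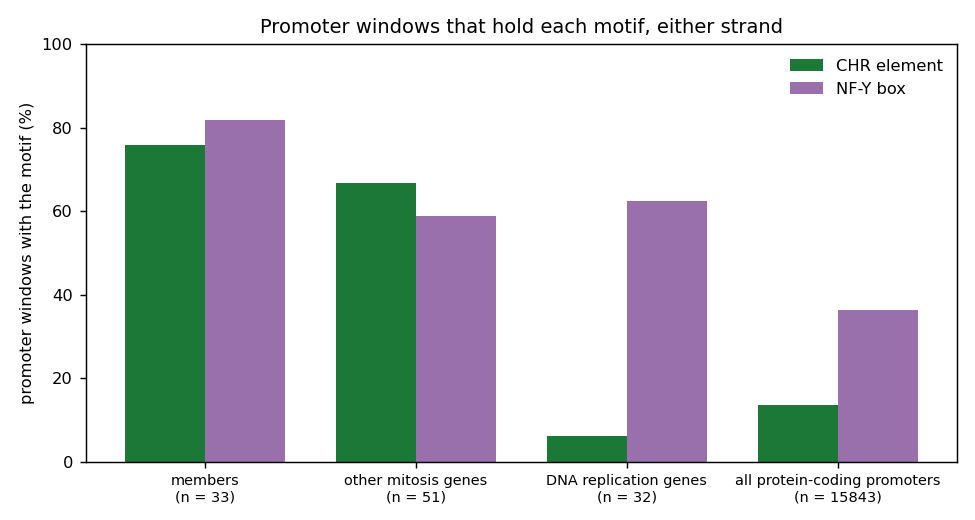
Share of 300-base promoter windows (vertical axis, percent) that hold the CHR motif (green) or the CCAAT box bound by NF-Y (purple) on either strand, for members, other mitosis genes, DNA replication genes and all protein-coding promoters, with the number of windows under each. CHR letters are in 75.8% of member windows and 6.25% of replication gene windows, while CCAAT letters are in 81.8% and 62.5%.

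Values are the deposited log2 signals, and a change is a difference of log2 group means ± its standard error from limma, fitted over all genes of a model. Calls were made at 0.05 after Benjamini-Hochberg adjustment over all genes tested, and "rose" and "fell" are used only of called genes. Every member passed the filter on low signal in every fit. Within a model the 3 treatments share the same DMSO arrays, so their changes are not independent of each other. On the human arrays 17 members were read on probe sets that may also bind other transcripts: ANLN, ASPM, AURKA, CCNB1, CDC20, CDCA8, CENPA, CENPF, ECT2, FOXM1, KIF23, MAD2L1, MKI67, PRC1, PTTG1, RACGAP1 and TPX2. On the mouse arrays 9 were: Aurkb, Bub1b, Cdc20, Cdca8, Foxm1, Kif2c, Nek2, Prc1 and Pttg1. MOLM-13 arrays had higher medians (6.18 to 6.25) than the other human arrays (5.54 to 5.66), so levels were not compared between them.

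Some arrays stood apart. REH DMSO replicate 1 carried signal of genes that are high in RS4;11: over 108 genes at least 5 log2 units higher in RS4;11 than in treated REH, it lay a median of 1.12 above treated REH, against -0.03 and 0.06 for DMSO replicates 2 and 3. VPREB1 read 7.69 on that array, against 3.46 and 3.58 on the other DMSO arrays of REH. REH DMSO replicate 3 had an actin 3' minus 5' probe set difference of 3.65, where the other REH arrays lay at or below 3.11. In the mouse cells, combination replicates 2 and 3 had differences of 1.12 and 1.99 and replicate 1 had 0.48, while all arrays with a single compound or DMSO lay between 0.38 and 0.63. With DMSO, B-lymphoid markers stood above the filter for 5 of 5 genes in RS4;11 and SEM and 4 of 5 in REH. Myeloid markers did so for 6 of 6 genes of MOLM-13 and of the mouse model. The markers did not fully separate the lineages. Myeloid markers also passed for 4 of 6 genes in each of RS4;11, SEM and REH, with MPO at 10.45 and ITGAM at 9.12 in REH. B-lymphoid markers passed for 3 of 5 mouse genes (Cd79b at 9.67) and 2 of 5 in MOLM-13, where the T cell marker CD3D read 9.44.

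In MOLM-13, EPZ004777 raised nearly the whole family, MI-2-2 lowered a part of it, and the combination again raised nearly all. With EPZ004777, 37 of 40 members rose and none fell, where 15.3% of all 14060 genes tested were called higher and 12.5% lower. With the combination 38 rose and none fell, beside 23.7% of all genes called higher and 25.8% lower. With MI-2-2, 8 members fell and none rose, where 8.36% of all genes were called lower and 10.2% higher. The median change of the members was 0.52 with the combination, 0.42 with EPZ004777 and -0.16 with MI-2-2, against medians of 0, 0.03 and 0.02 over all genes.

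**Figure D2:**
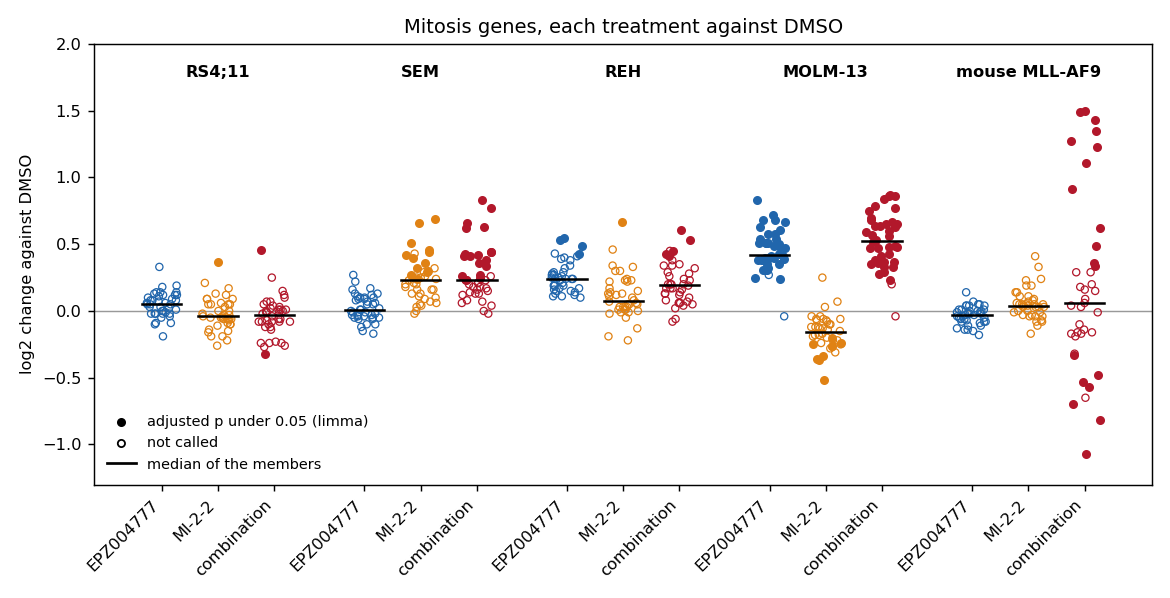
Log2 change of each member against DMSO (vertical axis) for every treatment and model (horizontal axis), with filled points for called members, open points for the others and a bar at the median. In MOLM-13 the EPZ004777 and combination medians lie at 0.42 and 0.52 and MI-2-2 at -0.16, and the mouse combination spans -1.07 to 1.5.

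KIF20A, a kinesin of the central spindle, showed the largest rise with EPZ004777. It read 10.35, 10.39 and 10.33 with the combination, 10.34, 10.22 and 10.41 with EPZ004777, and 9.15, 9.31 and 9.50 with MI-2-2, against 9.31, 9.64 and 9.54 with DMSO. Every array with EPZ004777, alone or combined, lay above every DMSO array, and the MI-2-2 and DMSO arrays overlapped. The change was 0.83 ± 0.10 with EPZ004777 (limma adjusted p = 0.000156, a 1.78-fold rise) and 0.86 ± 0.10 with the combination (limma adjusted p = 3.48e-05), and with MI-2-2 it was -0.18 ± 0.10 (limma adjusted p = 0.262).

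MKI67, which encodes the proliferation antigen Ki-67, read 10.36, 10.37 and 10.35 with the combination, 10.31, 10.05 and 10.25 with EPZ004777, and 9.46, 9.47 and 9.44 with MI-2-2, against 9.35, 9.95 and 9.27 with DMSO. The DMSO arrays spread widely, with replicate 2 standing above the other two, yet all arrays with EPZ004777 or the combination were higher. MKI67 rose by 0.68 ± 0.14 with EPZ004777 (limma adjusted p = 0.00551) and by 0.84 ± 0.14 with the combination (limma adjusted p = 0.000581). TOP2A, the topoisomerase that untangles sister chromatids, rose by 0.51 ± 0.07 and 0.64 ± 0.07. FOXM1, the transcription factor of the late cell cycle, rose by 0.41 ± 0.08 and 0.56 ± 0.08 and fell by 0.26 with MI-2-2.

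CDK1, the kinase that starts mitosis, read 12.13, 12.05 and 12.13 with the combination, 11.98, 11.98 and 12.02 with EPZ004777, and 11.62, 11.52 and 11.67 with MI-2-2, against 11.66, 11.79 and 11.81 with DMSO. The first and second sets lay wholly above DMSO. CDK1 rose by 0.24 ± 0.06 with EPZ004777 and 0.35 ± 0.06 with the combination. CCNB1, its mitotic cyclin, rose by 0.48 ± 0.09 and 0.37 ± 0.09, so all 4 genes of CDK1 and its cyclins were called with both treatments. Among the mitotic kinases, PLK1 rose by 0.51 ± 0.09 with EPZ004777 and 0.49 ± 0.09 with the combination, and AURKA by 0.32 ± 0.06 and 0.33 ± 0.06. NEK2, a kinase of centrosome separation, was called with the combination (0.57 ± 0.13) and missed the threshold with EPZ004777 (0.37 ± 0.13, limma adjusted p = 0.0528).

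The kinetochore genes moved together, with 6 of 6 called higher under both treatments. SPC25 of the NDC80 complex, which couples kinetochores to microtubules, read 10.45, 10.49 and 10.58 with the combination and 10.32, 10.39 and 10.36 with EPZ004777, against 9.32, 9.99 and 9.59 with DMSO. It rose by 0.87 ± 0.15 with the combination and 0.72 ± 0.15 with EPZ004777. CENPF, a large kinetochore protein, rose by 0.79 ± 0.11 and 0.63 ± 0.11. PRC1, which bundles central spindle microtubules, rose by 0.77 ± 0.09 and 0.50 ± 0.09. Of the spindle proteins, ASPM, which focuses spindle poles, rose by 0.86 ± 0.12 with the combination and 0.68 ± 0.12 with EPZ004777, and DLGAP5, which stabilises spindle microtubules, by 0.67 ± 0.10 with either. UBE2C, the ubiquitin-conjugating enzyme of the anaphase-promoting complex, rose by 0.70 ± 0.06 and 0.61 ± 0.06.

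MAD2L1, the checkpoint protein that holds CDC20 inactive, was not called in either treatment (MAD2L1 changed by -0.04 ± 0.07 in both). It read 12.94, 13.04 and 12.95 with the combination and 12.86, 13.00 and 13.08 with EPZ004777, against 12.92, 13.04 and 13.09 with DMSO, and these groups overlapped. With MI-2-2 it read 12.91, 12.76 and 12.74, below all DMSO arrays, and was not called. KIF23, the kinesin of centralspindlin, was not called with EPZ004777 (0.27 ± 0.10) or the combination (0.20 ± 0.10). The other 39 members had all arrays above all DMSO arrays under each of these treatments, where 24.5% of all genes did so with EPZ004777 and 28.9% with the combination. Over all 72 brighter probe sets of the members, 70 lay above 0 with EPZ004777, 69 with the combination and 6 with MI-2-2.

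**Figure D3:**
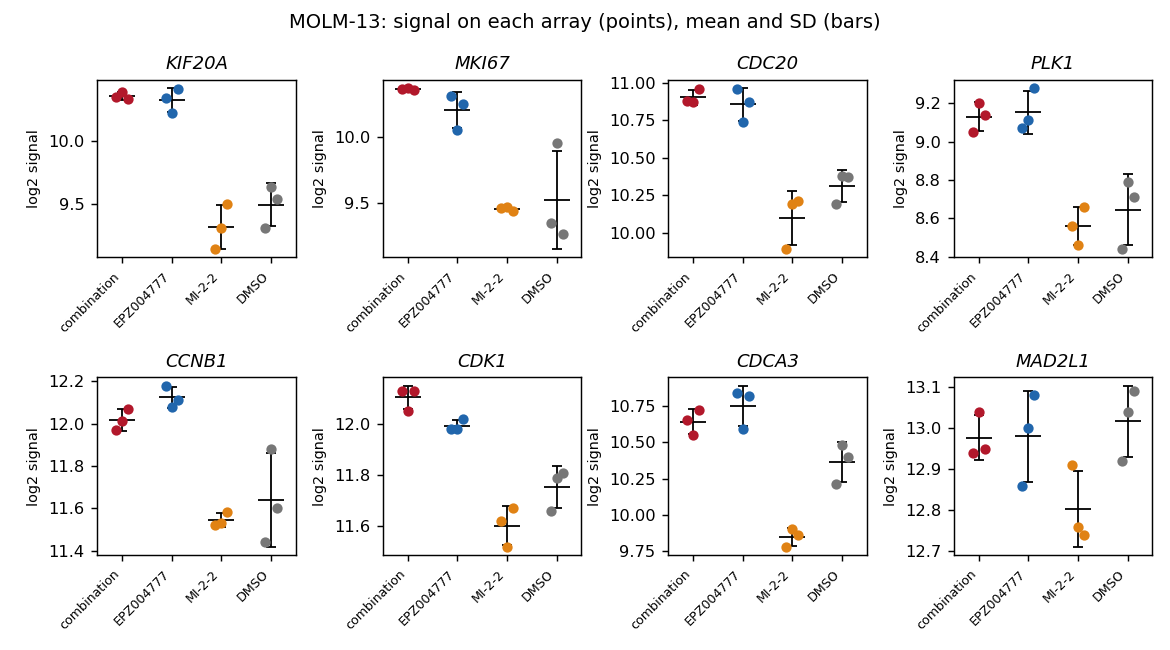
Log2 signal of 8 members in MOLM-13 (vertical axes, each with its own range) on each array (points), with mean and SD (bars, n = 3), for combination, EPZ004777, MI-2-2 and DMSO. KIF20A sits between 10.22 and 10.41 with EPZ004777 and at or below 9.64 with DMSO, CDCA3 is lowest with MI-2-2, and MAD2L1 overlaps between combination, EPZ004777 and DMSO.

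With MI-2-2 the largest fall was that of CDCA3, which encodes an F-box-like protein that promotes entry into mitosis. CDCA3 read 9.78, 9.90 and 9.86 with MI-2-2, against 10.21, 10.48 and 10.40 with DMSO, and the groups did not overlap. It fell by 0.52 (SE 0.09, limma adjusted p = 0.00185), and rose by 0.39 ± 0.09 with EPZ004777. KIF23 fell by 0.37, the checkpoint kinase BUB1 by 0.36, the centromeric histone CENPA by 0.34, ECT2, which acts in cytokinesis, by 0.25, BUB1B by 0.24 and securin PTTG1 by 0.20. CCNB1 (-0.10 ± 0.09), CDK1 (-0.15 ± 0.06), PLK1 (-0.08 ± 0.09), AURKA (-0.13 ± 0.06), MKI67 (-0.07 ± 0.14) and TOP2A (-0.04 ± 0.07) were not called. This count rested on the DMSO arrays: it ran from 1 when DMSO replicate 3 was left out to 20 when DMSO replicate 1 was, whose mean over the members was 10.59, beside 10.88 and 10.78 on the other DMSO arrays. Of the 8 falls, 1 kept its call when any 1 array was left out.

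Set against MI-2-2 alone, the combination was higher for 39 of 40 members, where 17.9% of all genes were called higher and 21.7% lower. KIF20A differed by 1.04 ± 0.10, ASPM by 1.01 ± 0.12, DLGAP5 by 0.98 ± 0.10 and CENPF by 0.92 ± 0.11, while MAD2L1 (0.18 ± 0.07) was not called. Against EPZ004777 alone the combination was higher for 3 members, NDC80 (0.19 ± 0.07), KIF2C (0.24 ± 0.08) and PRC1 (0.27 ± 0.09), where 14.4% of all genes were called higher and 18.9% lower. NDC80 is the core of its kinetochore complex, KIF2C removes mitotic attachment errors by shortening microtubules, while PRC1 acts later, at the central spindle. That count of 3 was 0 in the fit without the low-signal filter.

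Other genes of division moved in the same lists. Of 61 other mitosis genes in MOLM-13, 40 rose and 2 fell with EPZ004777, 15 fell with MI-2-2, and 40 rose and 6 fell with the combination. PSRC1, a spindle protein, rose by 0.89 ± 0.10 with EPZ004777 and 1.20 ± 0.10 with the combination, and the checkpoint gene MAD1L1, a partner of MAD2L1, fell by 0.48 and 0.94. Of 37 DNA replication genes, 25 rose and 1 fell with EPZ004777 and 21 rose and 3 fell with the combination. E2F8, a repressive E2F factor, rose by 0.96 ± 0.11 and 1.38 ± 0.11, and CCNE2, a cyclin of S phase entry, rose by 0.66 ± 0.06 with the combination. Among 16 regulators of mitotic gene transcription, MYBL2, which encodes B-MYB, rose by 0.36 ± 0.06 with EPZ004777 and 0.31 ± 0.06 with the combination. CDKN1A, the inhibitor p21, fell by 0.51 with EPZ004777.

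Myeloid markers moved in the same arrays. The mean of 6 myeloid markers was 12.18 to 12.20 with the combination, 11.80 to 11.84 with EPZ004777 and 10.97 to 11.23 with MI-2-2, against 10.77 to 10.91 with DMSO. MPO, the granule peroxidase of neutrophil precursors, changed by 3.26 with the combination, 3.02 with EPZ004777 and 0.83 with MI-2-2, all called higher. The markers did not all move as MPO did with MI-2-2: CSF1R (0.79 ± 0.15) and ELANE (0.46 ± 0.05) rose, LYZ (0.14 ± 0.06) and CEBPE (0.26 ± 0.11) were not called, and ITGAM fell by 0.70. With the combination 6 of 6 markers rose and with EPZ004777 5 of 6, ITGAM (0.26 ± 0.11) not being called. Whether these markers bear on the mitosis genes was not tested.

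In SEM, MI-2-2 and the combination raised a part of the family, and no member was called with EPZ004777. MI-2-2 raised 13 of 40 members, where 9.32% of all 13967 genes tested were called higher and 8.47% lower, and the combination raised 18, where 14.3% were called higher and 15.2% lower. No member fell with either. With EPZ004777 limma called 0 members, with 1 at an unadjusted p under 0.05, while 4.55% of all genes were called higher and 4.12% lower. The median change was 0.24 with MI-2-2 and 0.23 with the combination, against 0.01 and -0.02 over all genes.

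CDC20, the activator of the anaphase-promoting complex, was the leading member. It read 11.00 and 11.10 with the combination, 10.43, 10.31 and 10.41 with EPZ004777, and 10.71 and 11.11 with MI-2-2, against 10.31 and 10.12 with DMSO. Both groups with MI-2-2 lay above DMSO without overlap, and the EPZ004777 group touched it. CDC20 rose by 0.83 ± 0.13 with the combination (limma adjusted p = 0.00249) and 0.69 ± 0.13 with MI-2-2 (limma adjusted p = 0.00973). CDCA3 read 10.06 and 10.02 with the combination, 9.28, 9.09 and 9.36 with EPZ004777, and 9.80 and 10.06 with MI-2-2, against 9.30 and 9.26 with DMSO. It rose by 0.77 ± 0.11 and 0.66 ± 0.11, in contrast to its fall with MI-2-2 in MOLM-13, where the dose and the duration were different.

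All 4 genes of a group that joined CDC20, UBE2C (0.36 ± 0.06) and securin PTTG1 (0.23 ± 0.07) with CDCA3 rose with the combination. None of the 4 cytokinesis genes did. KIF20A read 10.01 and 9.83 with the combination, against 9.26 and 9.25 with DMSO, and rose by 0.66 ± 0.09, while MKI67 rose by 0.63 ± 0.15 and CENPA by 0.62 ± 0.13. With MI-2-2, KIF20A (0.29 ± 0.09) and MKI67 (0.43 ± 0.15) were not called, and CENPA rose by 0.51 ± 0.13. DLGAP5 rose by 0.44 ± 0.11 with the combination and 0.46 ± 0.11 with MI-2-2, HMMR, a spindle protein, by 0.44 ± 0.10 and 0.42 ± 0.10, and NEK2 by 0.41 ± 0.10 and 0.44 ± 0.10. SPC25 rose by 0.43 ± 0.07 and 0.40 ± 0.07, while its complex partners NDC80 (0 ± 0.10 and -0.02 ± 0.10) and NUF2 (0.14 ± 0.07 and 0.06 ± 0.07) were not called.

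CCNB1 read 11.44 and 11.47 with the combination, 11.24, 11.22 and 11.23 with EPZ004777, and 11.41 and 11.55 with MI-2-2, against 11.12 and 11.12 with DMSO. It rose by 0.34 ± 0.07 with the combination and 0.36 ± 0.07 with MI-2-2, and CDK1 was not called (0.13 ± 0.07 and 0.16 ± 0.07). AURKA rose by 0.38 ± 0.07 and 0.27 ± 0.07. PLK1 rose with the combination (0.41 ± 0.11) and was not called with MI-2-2 (0.32 ± 0.11), while TOP2A rose with MI-2-2 (0.24 ± 0.07) and was not called with the combination (0.18 ± 0.07). FOXM1 was not called (-0.02 ± 0.10 and 0.04 ± 0.10).

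Against EPZ004777 alone the combination was higher for 16 members, where 15.4% of all genes were called higher and 11.5% lower. These were led by CDCA3 (0.80 ± 0.10), CDC20 (0.66 ± 0.12), MKI67 (0.54 ± 0.13) and DLGAP5 (0.54 ± 0.10). Against MI-2-2 alone limma called 0 members, with 2 at an unadjusted p under 0.05, where 2.79% of all genes were called higher and 1.93% lower.

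**Figure D4:**
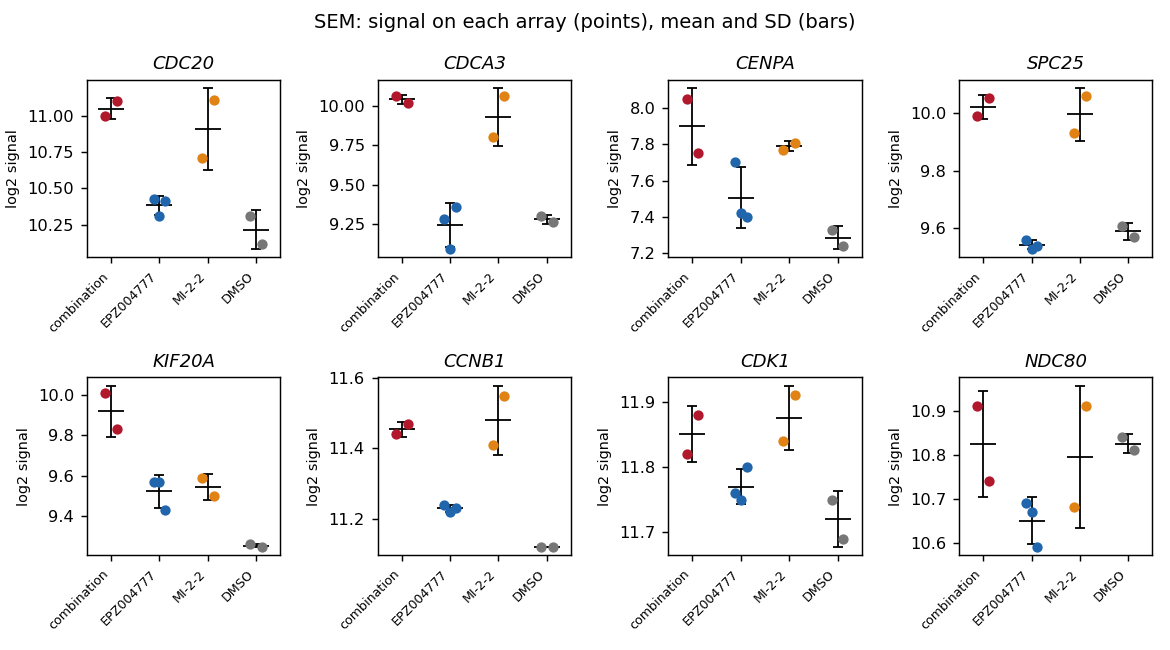
Log2 signal of 8 members in SEM (vertical axes, each with its own range) on each array (points), with mean and SD (bars, n = 2 or 3), for combination, EPZ004777, MI-2-2 and DMSO. CDC20 and SPC25 are high in both groups that received MI-2-2, with SPC25 at 9.93 to 10.06 there and at or below 9.61 elsewhere. NDC80 overlaps between combination, MI-2-2 and DMSO, and its EPZ004777 arrays (at or below 10.69) lie below DMSO.

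The SEM groups with MI-2-2 also differed in a measure of RNA quality. The actin 3' minus 5' difference was 1.83 to 1.93 with the combination and 1.83 to 1.89 with MI-2-2, 2.32 to 2.39 with EPZ004777 and 2.41 to 2.48 with DMSO. With it as a covariate limma called 0 members for either treatment (0 and 1 at an unadjusted p under 0.05), and the median standard error of the members grew to 0.45 and 0.44. This measure and the MI-2-2 treatment cannot be told apart in SEM. Leaving out 1 array gave 1 to 8 calls with MI-2-2 and 9 to 13 with the combination, and 1 of the 13 and 7 of the 18 members kept their call throughout. Over the 76 brighter probe sets of the members, 69 lay above 0 with MI-2-2 and 71 with the combination.

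Of 61 other mitosis genes in SEM, 11 rose with MI-2-2 and 20 with the combination and none fell, with TACC3, a spindle protein, at 0.49 ± 0.08 and 0.60 ± 0.08. Of 37 DNA replication genes, 7 rose and 2 fell with MI-2-2 and 12 rose and 2 fell with the combination. The S phase cyclins CCNE1 (1.16 ± 0.08) and CCNE2 (1.26 ± 0.12) led with the combination, and the licensing factor CDT1 (-0.52 ± 0.11) and the primase PRIM1 (-0.58 ± 0.08) fell. CDKN1A rose by 0.57 ± 0.11 with MI-2-2 and 0.45 ± 0.11 with the combination. The mean of the myeloid markers was 7.12 to 7.32 with the combination and 6.32 to 6.37 with MI-2-2, against 4.99 to 5.06 with DMSO. LYZ, which encodes lysozyme, changed by 6.33 and 4.00, and ITGAM and CSF1R also rose with both. MPO rose with the combination (0.85 ± 0.19) and was not called with MI-2-2 (0.46 ± 0.19). CEBPE was called with neither (0.57 ± 0.21 and 0.35 ± 0.21). The part of these markers in the changes of the mitosis genes was not tested.

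RS4;11 had few calls among the members. With EPZ004777 limma called 0 of 40 members, with 1 at an unadjusted p under 0.05, where 4.51% of all 13867 genes were called higher and 2.08% lower. MI-2-2 raised MKI67 alone, where 5.89% of all genes were called higher and 6.84% lower, and the combination raised MKI67 and lowered SPC25, where 11.2% were called higher and 12.4% lower. The 95% intervals lay within 0.5 log2 units of no change for 38 members under the combination, 38 under EPZ004777 and 39 under MI-2-2. MKI67 read 11.83, 11.79 and 12.07 with the combination, 11.80, 11.75 and 11.76 with EPZ004777, and 11.78, 11.89 and 11.75 with MI-2-2, against 11.33 and 11.54 with DMSO. All treated arrays lay above both DMSO arrays, with changes of 0.46 ± 0.10 (limma adjusted p = 0.0054), 0.33 ± 0.10 (limma adjusted p = 0.0664) and 0.37 ± 0.10 (limma adjusted p = 0.0285). None of these calls, nor that of SPC25, held through leaving out each array.

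SPC25 read 9.10, 9.32 and 9.27 with the combination in RS4;11, 9.60, 9.50 and 9.49 with EPZ004777, and 9.35, 9.34 and 9.40 with MI-2-2, against 9.56 and 9.54 with DMSO. It fell by 0.32 with the combination, and the MI-2-2 arrays, although all below DMSO, were not called (-0.19 ± 0.08). Against EPZ004777 alone the combination was lower for UBE2C (-0.37 ± 0.07), NUF2 (-0.35 ± 0.07) and SPC25 (-0.30 ± 0.07), where 9.56% of all genes were called lower and 10% higher. Against MI-2-2 alone limma called 0 members, with 1 at an unadjusted p under 0.05, where 3.91% of all genes were called lower and 6.76% higher. CCNB1, CDK1, PLK1, AURKA, FOXM1 and TOP2A changed by between -0.26 and 0.12 in the 3 treatments, and none was called. Of 61 other mitosis genes 11 fell and 1 rose with the combination, and of 37 DNA replication genes 10 fell and 2 rose, PRIM1 by -0.79 ± 0.08, while CDKN1A fell by 0.55.

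In REH a few members rose. EPZ004777 raised UBE2C (0.55 ± 0.13), MKI67 (0.53 ± 0.11), SPC25 (0.49 ± 0.12) and DLGAP5 (0.43 ± 0.11), where 2.82% of all 13888 genes were called higher and 1.13% lower. MI-2-2 raised SPC25 (0.67 ± 0.12), where 0.396% were called higher and 0.85% lower, and the combination raised SPC25 (0.61 ± 0.12), UBE2C (0.53 ± 0.13), DLGAP5 (0.45 ± 0.11), MKI67 (0.43 ± 0.11) and HMMR (0.41 ± 0.11), where 4.1% were called higher and 2.93% lower. SPC25 read 9.95, 9.96 and 9.89 with the combination, 9.88, 9.75 and 9.81 with EPZ004777, and 9.96, 9.90 and 10.12 with MI-2-2, against 9.07, 9.32 and 9.58 with DMSO. All treated arrays lay above all DMSO arrays, which themselves spread by more than the treated ones. UBE2C read 11.23, 11.17 and 11.17 with the combination, 11.32, 11.16 and 11.14 with EPZ004777, and 11.05, 11.20 and 11.10 with MI-2-2, against 10.34, 10.73 and 10.91 with DMSO.

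These REH counts rest on the DMSO arrays that stood apart. Leaving out 1 array gave 1 to 13 calls under the combination, 0 to 17 under EPZ004777 and 0 to 4 under MI-2-2, the highest each time without DMSO replicate 3. With DMSO replicate 2 alone, a single array assumed to vary like the other groups, the counts were 3, 8 and 1. The median SD of the members was 0.20 between the REH DMSO arrays and 0.09 within treated groups. CCNB1 (0.32 ± 0.12 under the combination, 0.27 ± 0.12 under EPZ004777, 0.22 ± 0.12 under MI-2-2), CDK1 (0.20, 0.24 and 0.13 with SE 0.09), PLK1 (0.13, 0.19 and 0.06 with SE 0.12), AURKA (0.08, 0.12 and -0.01 with SE 0.09), FOXM1 (0.02, 0.17 and -0.19 with SE 0.15) and TOP2A (0.24, 0.23 and 0.10 with SE 0.08) were not called. The combination differed from EPZ004777 for 0 members by limma (1 at an unadjusted p under 0.05), where 0.0648% of all genes were called higher and 0.0432% lower. It differed from MI-2-2 for 0 members by limma (0 at an unadjusted p under 0.05), where 1.63% were called higher and 0.18% lower. In REH, CDKN1A fell by 0.64 under the combination, 0.60 under EPZ004777 and 0.51 under MI-2-2.

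Differences between the lines with the same doses and duration were tested as the change in RS4;11 or SEM minus that in REH. In RS4;11 the combination effect was lower than in REH for SPC25 (-0.93 ± 0.13), UBE2C (-0.77 ± 0.14), AURKB (-0.42 ± 0.13), BIRC5 (-0.42 ± 0.11) and HMMR (-0.40 ± 0.13), where 8.04% of all 14919 genes were called lower and 7.9% higher. AURKB and BIRC5 encode the kinase and survivin of the chromosomal passenger complex. For MI-2-2 it was lower for SPC25 (-0.86 ± 0.13) and UBE2C (-0.72 ± 0.14), where 3.95% were called lower and 5.07% higher, and for EPZ004777 for SPC25 (-0.51 ± 0.13), where 1.45% were called lower and 1.83% higher. In SEM the effect on CDCA3 was higher than in REH with MI-2-2 (0.65 ± 0.14, where 7.23% of genes were called higher and 4.84% lower) and with the combination (0.57 ± 0.14, where 9.38% were called higher and 9.75% lower). The EPZ004777 effect in SEM was lower than in REH for SPC25 (-0.54 ± 0.13) and DLGAP5 (-0.53 ± 0.13), where 3.23% were called lower and 3.25% higher. All these differences share the REH DMSO arrays. MOLM-13 was not tested against the other lines.

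In the mouse MLL-AF9 cells no member was called with either compound alone: limma called 0 of 39 with EPZ004777 and 0 with MI-2-2, with 0 at an unadjusted p under 0.05 for both, where 4.22% of all 13365 genes were called higher and 1.38% lower with EPZ004777, and 3.24% and 2.02% with MI-2-2. This does not show that the members were level: the 95% intervals lay within 0.5 log2 units of no change for 28 of 39 members with EPZ004777 and 27 with MI-2-2. The fit pools the spread of all 4 groups, and the median standard error of the members was 0.14, while their median SD between DMSO arrays was 0.04. Cenpf read 9.58, 10.08 and 9.68 with MI-2-2, against 9.34, 9.35 and 9.43 with DMSO, and the groups did not overlap although the change was not called (0.41 ± 0.22, limma adjusted p = 0.504). Aspm (0.33 ± 0.21) and Mki67 (0.23 ± 0.16) also had all MI-2-2 arrays above all DMSO arrays without a call. So did Aurka, Plk1, Cenpe and Ndc80. In Aspm and Mki67, MI-2-2 replicate 2 stood highest, for Aspm at 10.71 beside 10.33 and 10.37. The share of all genes that separated in this way was not computed for the mouse cells, so these separations are description only. Other members separated the other way, also without a call. Kif11 read 11.89, 11.88 and 11.80 with MI-2-2, against 11.92, 12.01 and 11.97 with DMSO. Spc25 read 11.69, 11.57 and 11.59, against 11.86, 11.72 and 11.78. The combination raised 12 members and lowered 7, where 28.5% of all genes were called higher and 36.2% lower. The members' share is close to the share of all genes for rises and below it for falls. The median change was 0.06, against -0.10 over all genes.

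Aspm read 11.06, 12.01 and 11.86 with the combination, against 10.08, 10.16 and 10.18 with DMSO, and rose by 1.5 ± 0.21 (limma adjusted p = 0.000109). Cenpf rose by 1.49 ± 0.22, Kif23 by 1.43 ± 0.19, Ndc80 by 1.35 ± 0.26, Foxm1 by 1.27 ± 0.25 and Kif2c by 1.23 ± 0.23. Cenpe, a kinetochore kinesin, rose by 1.11 ± 0.21 and Mki67 by 0.91 ± 0.16. Nek2 read 9.55, 8.77 and 8.79 with the combination, against 10.13, 10.03 and 10.15 with DMSO, and fell by 1.07 (SE 0.19). Kif11, the kinesin that separates spindle poles, fell by 0.82, Aurka by 0.70, Spc25 by 0.57, Birc5 by 0.53, Mad2l1 by 0.48 and Cdk1 by 0.33. Plk1 (0.09 ± 0.11) and Top2a (0.15 ± 0.09) were not called.

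These mouse values differ between the combination arrays, as the plot of replicate 1 against replicates 2 and 3 shows. Kif11 read 12.08 on replicate 1, above its DMSO values of 11.92, 12.01 and 11.97, and 10.73 and 10.64 on replicates 2 and 3. Tpx2 read 12.64, 11.20 and 10.94 with the combination, against 12.23, 12.23 and 12.26 with DMSO, so replicate 1 lay above DMSO and the others below. Several probe sets of 1 gene also parted on replicates 2 and 3: their changes spanned a median of 0.96 and 1.03 log2 units over 26 members, against 0.26 on replicate 1. One probe set of Cdc20 changed by 0.52 on replicate 2 and another by -1.24. The probe set read for Kif2c changed by 0.60, 1.53 and 1.57 on replicates 1 to 3, and its next brightest by 0.32, 0.03 and -0.08. For Foxm1 (0.56, 1.56 and 1.63) and Nek2 (-0.60, -1.51 and -1.47) the next brightest probe set moved with the one read.

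**Figure D5:**
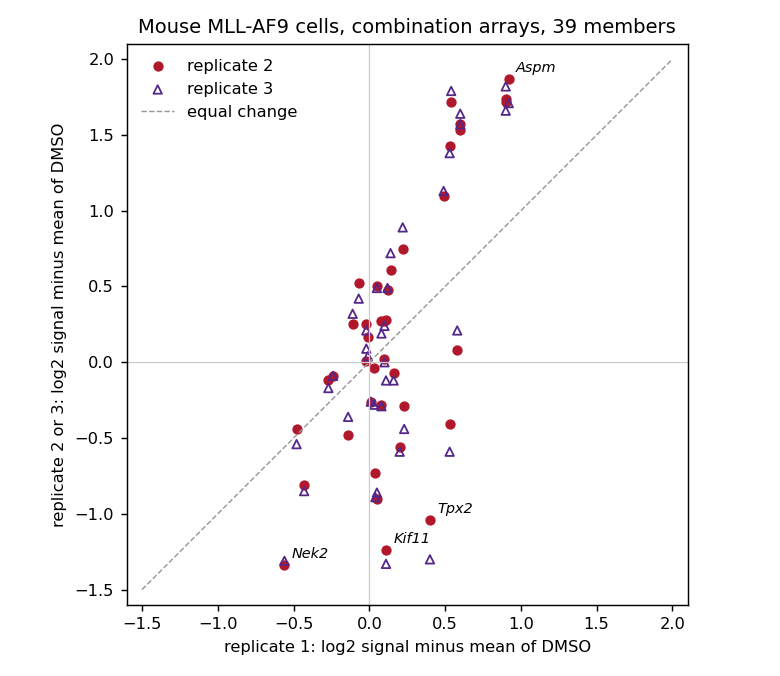
Log2 signal minus the DMSO mean for 39 members on combination replicate 1 (horizontal axis) and on replicates 2 (filled circles) and 3 (open triangles, vertical axis), with a dashed line of equal change. Aspm, at 0.92 on replicate 1 and 1.87 on replicate 2, and Nek2 keep their direction, while Kif11 and Tpx2 lie above 0 on replicate 1 and below 0 on replicates 2 and 3.

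Replicate 1 was also set alone against DMSO, and a single array gives no spread of its own. It and the DMSO arrays belong to the fit with 3 arrays too, so these readings are not independent. Of the members that rose with 3 arrays, Aspm changed by 0.92 on replicate 1, Cenpf and Kif23 by 0.90, Kif2c by 0.60 and Foxm1 by 0.59. Ndc80 (0.54), Cenpe (0.53), Mki67 (0.49) and Dlgap5 (0.22) followed, while Anln (0.05), Cdca3 (0.12) and Cdca8 (0.14) changed little. Of the members that fell with 3 arrays, Nek2 (-0.56), Mad2l1 (-0.48), Aurka (-0.43) and Cdk1 (-0.14) lay below DMSO on replicate 1. Kif11 (0.11), Birc5 (0.04) and Spc25 (0.05) lay above it. Of the other mitosis genes 19 rose and 16 fell of 59 with 3 arrays, where 28.5% of all genes were called higher and 36.2% lower. With replicate 1 alone their median change was -0.05, against -0.06 over all genes. Of the DNA replication genes 23 of 36 fell with 3 arrays and 1 rose, and their median change with replicate 1 alone was -0.54. Gins2, a subunit of the replicative helicase, fell by 2.05, Tyms, thymidylate synthase, by 1.6, and E2f8 rose by 0.78 ± 0.10. The cell cycle inhibitor Cdkn2d rose by 1.56 ± 0.11 and Cdkn1a fell by 0.83.

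The mean of the mouse myeloid markers was 12.52 to 12.65 with the combination, against 9.45, 10.77 and 10.73 on DMSO replicates 1, 2 and 3. Csf1r, the macrophage growth factor receptor, changed by 4.59 ± 0.77 and Itgam by 2.86 ± 0.21. Mpo (2.30 ± 0.50), Cd33 (2.03 ± 0.16) and Lyz2 (1.85 ± 0.26) also rose, and Elane was not called (0.07 ± 0.10). The part of these markers in the changes of the mitosis genes was not tested. Against EPZ004777 alone the combination was called for 20 members, 14 higher and 6 lower, and against MI-2-2 alone for 18, 12 higher and 6 lower, where 28.6% of all genes were called higher and 34.8% lower in the first and 28.9% and 33.8% in the second. Kif23 (1.47 ± 0.19 and 1.32 ± 0.19), Cenpf (1.49 ± 0.22 and 1.08 ± 0.22), Nek2 (-0.92 ± 0.19 and -1.12 ± 0.19) and Aurka (-0.62 ± 0.12 and -0.89 ± 0.12) were among the called members of both.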

How the data were processed

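Total RNA was amplified with the Nugen Ovation system and hybridized to Affymetrix arrays, per the labels' protocols. The authors deposited log2 RMA values (affy under R 3.0.2, per the submitters' processing notes), which were taken unchanged. The number of arrays (2 or 3 a group, 56 in all) limits the precision. The combination was taken to hold each compound at its single dose. The labels spell the menin inhibitor MI-2-2 and MI2-2.

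Probe sets were named through the platform annotation, human symbols updated by Entrez identifier: 41091 of 54675 human probe sets had 1 symbol, 1801 several and 11777 none, beside 34945, 932 and 9211 of 45101 mouse probe sets. Each gene was read on its brightest probe set by mean over the organism's arrays, and stayed in a fit where that probe set exceeded the array's percentile 40 on 2 or more arrays. Each model was fitted alone in limma 3.58.1 (R 4.3.3) with 1 coefficient a group. Differences between RS4;11 or SEM and REH came from 1 fit of 32 arrays. The fits were tested on simulated data, with changes set into the EPZ004777 group. A change of 0.5 log2 units was called for 74% of such genes in MOLM-13, 56% in RS4;11, 52% in SEM, 48% in REH and 26% in the mouse cells. At 0.25 log2 units these shares were 36%, 4%, 0%, 2% and 0%, so small changes were mostly missed in the simulation. Fewer genes were changed there than were called with EPZ004777 in the data, which makes the adjusted threshold stricter. Some changes near that size were called in the data, so these shares are only a rough guide to what the fits miss. Correlations between same-numbered replicates of a model ran from -0.47 to 0.48, with medians per model between -0.10 and 0.10. Numbers were not used as pairs in the main fits, and counts with the replicate number as a block are given below. The members and lists were chosen with earlier results of these data known. Members named are the 6 largest rises and falls called per comparison (4 between treatments or lines), CCNB1, CDK1, PLK1, AURKA, FOXM1, MKI67 and TOP2A in each model, and any called member of opposite direction, with further members given as values. Of the other lists up to 3 called genes a direction could be named. Promoter sequences are from RefSeq on GRCh38.p14. Alternatives were the mean of a gene's probe sets, a second quantile normalization, no filter, the probe set chosen within a fit, the replicate block, the actin 3' minus 5' difference as a covariate and leaving out each array. Fits without REH DMSO replicates 1 and 3 and without mouse combination replicates 2 and 3 were added after seeing the data.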

Additional observations from a re-analysis of the deposited data

Results flagged for a closer look

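The effect of a treatment on 7 members differed between lines given the same doses for the same time, by a test of the difference itself in limma. The same test was run on all 14919 genes. RS4;11 minus REH was called lower and higher for 1.45% and 1.83% (EPZ004777), 3.95% and 5.07% (MI-2-2), and 8.04% and 7.9% (combination). For SEM minus REH these shares were 3.23% and 3.25%, 4.84% and 7.23%, and 9.75% and 9.38%, in that order. Whether members were called more often than other genes was not tested. For SPC25, RS4;11 minus REH was -0.51 with EPZ004777 (limma adjusted p = 0.0282), -0.86 with MI-2-2 (limma adjusted p = 0.00016) and -0.93 with the combination (limma adjusted p = 1.54e-05), and SEM minus REH was -0.54 with EPZ004777 (limma adjusted p = 0.0127). For UBE2C, RS4;11 minus REH was -0.72 with MI-2-2 and -0.77 with the combination. With the combination it was -0.42 for AURKB, -0.42 for BIRC5 and -0.40 for HMMR. For DLGAP5, SEM minus REH was -0.53 with EPZ004777. For CDCA3, SEM minus REH was 0.65 with MI-2-2 (limma adjusted p = 0.00286) and 0.57 with the combination (limma adjusted p = 0.00542). Each of these rests on the REH DMSO arrays, of which replicates 1 and 3 stood apart. No group had the 4 arrays needed to test a single array against its group.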

How the results depend on the processing

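Counts below are members called, and the cause of each move was not tested unless stated. With the mean of all probe sets of a gene, RS4;11 had 5 calls under the combination, 1 under EPZ004777 and 2 under MI-2-2, REH had 9 with the combination, and SEM had 1 for the combination against MI-2-2. In that setting the differences RS4;11 minus REH numbered 9 for the combination, 2 for EPZ004777 and 7 for MI-2-2, and SEM minus REH 4, 6 and 3. A second quantile normalization gave 1 call for the SEM combination against MI-2-2 and 2 for SEM minus REH with the combination. Without the filter MOLM-13 had 3 calls with MI-2-2 and 0 for the combination against EPZ004777.

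With the replicate block the counts were 0 for RS4;11 with MI-2-2, 6 for SEM with MI-2-2, 10 with the combination and 9 for the combination against EPZ004777. In REH they were 1 under the combination, 1 under EPZ004777 and 0 under MI-2-2, and between lines 0 (EPZ004777) and 3 (combination) for RS4;11 minus REH and 1 (EPZ004777) for SEM minus REH. With the block MOLM-13 had 38 calls with the combination and 37 with EPZ004777. Replicates share only a number, and arrays that correlated best with their own number were 1 of 11 in RS4;11, 4 of 9 in SEM, 4 of 12 in REH, 2 of 12 in MOLM-13 and 3 of 12 in the mouse cells.

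With the actin 3' minus 5' difference as a covariate, SEM had 0 calls with MI-2-2, 0 with the combination, 0 for the combination against EPZ004777 and 1 against MI-2-2. REH had 7 with EPZ004777 and 0 with MI-2-2, MOLM-13 had 4 with MI-2-2 and 1 for the combination against EPZ004777, and the mouse cells had 12 for the combination against EPZ004777. RS4;11 minus REH had 18 under the combination, 3 under EPZ004777 and 4 under MI-2-2, and SEM minus REH had 10 with EPZ004777 and 3 with the combination. In that fit CENPA with MI-2-2 (-0.0029) and KIF20A with the combination (-0.03) turned sign in SEM. MOLM-13 had 34 calls with the combination and 29 with EPZ004777.

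Without REH DMSO replicates 1 and 3, a choice made after seeing the data, REH had 8 calls with EPZ004777 and 3 with the combination, RS4;11 minus REH had 2 with EPZ004777 and 11 with the combination, and SEM minus REH had 8 with EPZ004777. In the mouse combination Ccna2 (-0.36) and Cdc20 (-0.24) turned sign with the mean of probe sets. With replicate 1 as the only combination array, also chosen after seeing the data, Ccnb2 (0.23), Tpx2 (0.40), Birc5 (0.04), Spc25 (0.05), Kif11 (0.11), Nusap1 (0.53) and Prc1 (0.20) did.

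Leaving out 1 array at a time, calls ranged in RS4;11 from 0 to 3 under the combination, 0 to 0 under EPZ004777, 0 to 1 under MI-2-2 and 3 to 6 for the combination against EPZ004777, and the single call without MI-2-2 replicate 2 was 1 fall. In SEM they ranged from 1 to 8 with MI-2-2, 9 to 13 with the combination and 7 to 13 against EPZ004777. In REH the ranges were 1 to 13 under the combination, 0 to 17 under EPZ004777 and 0 to 4 under MI-2-2. In MOLM-13 they were 37 to 38, 34 to 38 and 1 to 20 in the same order, with 0 to 2 against EPZ004777 and 39 to 40 against MI-2-2. In the mouse cells the combination had 15 to 30 calls, 15 to 30 against EPZ004777 and 14 to 31 against MI-2-2, the highest each time without combination replicate 1. RS4;11 minus REH ranged from 3 to 20 under the combination, 0 to 11 under EPZ004777 and 2 to 7 under MI-2-2, and SEM minus REH from 1 to 3, 0 to 17 and 1 to 4. In SEM and REH the contrasts not given here had 0 calls throughout.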
